A study of Homo sapiens with 12 samples.

Results

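The comparison asked which well-expressed genes differed in the same direction from polarized vehicle cultures under both treatments that the series describes as ending apical polarity. It used all 12 of the 12 arrays of the series, 4 each from AGA, Aza and vehicle cultures. A probe set was a member when its mean level over the 12 arrays lay above the median of all probe sets (a log2 intensity of 4.76) and when each AGA and each Aza array differed from the vehicle array of the same replicate number in 1 direction. That gives 8 differences per probe set, and 578 of 11107 well-expressed probe sets (5.2%) met the condition, out of 22215 probe sets in all, of which 795 (3.58%) met it at any level. Of the 578, 309 (2.78%) were higher in both treatments and 269 (2.42%) were lower, and 488 genes were represented among the members that carry 1 gene symbol.

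The cells were HMT-3522 S1, a human mammary epithelial line that is established and non-neoplastic, at passage 55 to 60. They were plated at 35000 per cm2 on a laminin-rich basement membrane gel and grown for 10 days with 5% Matrigel in the medium, the first 8 days with epidermal growth factor (EGF) and the last 48 hours without it. AGA cultures received 10 µM 18-alpha-glycyrrhetinic acid, a compound that closes gap junction channels, from plating to day 10. Aza cultures received 10 µM 5-aza-2'-deoxycytidine, a cytosine analog that traps DNA methyltransferases, over the same 10 days with the same change of medium every 2 days. Vehicle cultures are the apically polarized controls, and what the vehicle was is not given in the sources used here. All 3 groups share the line, the gel and the final EGF withdrawal, and the series calls the 4 replicates per treatment biological without saying how the cultures were separated. The p-values therefore measure the spread between these arrays.

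Apical polarity is the sorting of proteins to the surface that faces the lumen of a gland. It is set up by the PAR, Crumbs and Scribble complexes and sealed by tight junctions, while hemidesmosomes and the basement membrane mark the opposite, basal side. In mammary acini grown in gel the axis can be lost while the cells stay attached to each other and to the basement membrane.

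Values are log2 intensities per probe set after quantile normalization of the 12 arrays, with intensities under 1 set to 1, and replicate values are listed from replicate 1 to replicate 4. Before normalization the array medians ran from 23.3 to 30.2 in AGA, 25.5 to 31.0 in Aza and 29.6 to 35.9 in vehicle cultures, so the deposited scale differed with the groups. On that scale the median of all probe sets lay at -0.16 for the mean of both treatments minus vehicle, and 443 well-expressed probe sets met the 8-of-8 condition, 12 higher and 431 lower. With each array centred on its median instead, the counts were 643, with 459 higher and 184 lower. Of the 578 members on the quantile scale, 123 kept the condition on the deposited scale, 7 higher and 116 lower. With centred arrays 403 of the 578 kept it, 248 higher and 155 lower. On the quantile, deposited and centred scales alike 113 met it, 7 higher and 106 lower. Both the membership and the split between higher and lower members therefore depend on the scaling. The directions below are relative to the bulk of the probe sets. The replicate 4 arrays of all 3 groups stood apart on the first principal component (69.3 to 84.5, against at most -12.0 for the other 9 arrays), which the differences within a replicate number remove where the shift is shared. Of the epithelial markers KRT5, KRT14, SFN, ITGB4, KRT18, CDH1 and KRT8 were well expressed (mean levels of 12.39 for KRT5 and 7.40 for KRT8), whereas EPCAM averaged 1.47 and KRT19 was at the floor on every array. Of 8 defining markers of fibroblasts, leukocytes, endothelium and fat, COL1A1 (7.15) and DCN (5.01) were well expressed and the other 6 averaged 1.12 to 2.70. DCN was higher in Aza than in vehicle cultures at 4 of 4 numbers, by 0.82 to 1.65, with Aza minus AGA at 1.47 (adjusted p = 0.0162), and COL1A1 was lower in AGA than in vehicle cultures at 4 of 4 numbers, with a mean difference of -0.37. The summed normalized intensity of 15 endothelial and fat markers was 250 to 377 in AGA, 429 to 623 in Aza and 336 to 465 in vehicle cultures. That of 24 mesenchymal markers was 7989 to 8798, 7794 to 9363 and 8273 to 8978 in AGA, Aza and vehicle cultures, and that of 20 leukocyte markers 113 to 168, 99.0 to 163 and 110 to 162. Their part in the results was not tested.

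At every replicate number both treatments had higher levels than vehicle of the redox enzyme TXNRD1 (a mean log2 difference of 0.51), the lysosomal cholesterol carrier NPC2 (0.41) and the respiratory chain subunit COX6C (0.27). Lower at every number were the amino acid transporter SLC38A4 (-1.15), the matrix protein THBS1 (-0.98), the thrombin receptor F2R (-0.50) and the coactivator EP300 (-0.52). The SLC38A4 mean came mostly from AGA, at -2.0, against -0.30 for Aza. On the deposited scale TXNRD1, NPC2, COX6C and SLC38A4 did not keep the 8-of-8 condition, while THBS1 and F2R did. The genes of the polarity complexes and of cell junctions had a median difference near 0. No probe set passed an adjusted p of 0.05 for the mean of both treatments against vehicle (limma with replicate number as a block, 0 of 22215, 0%), and the lowest adjusted p was 0.0739. At an unadjusted p under 0.05, 1906 probe sets (8.58%) were counted. In the same fit 156 probe sets (0.702%) passed for AGA alone, 86 higher and 70 lower, 1 (0.0045%) passed for Aza alone (6.47% of probe sets at an unadjusted p under 0.05), and 189 (0.851%) differed between Aza and AGA. These counts depend on the block and on how dim values are floored: for AGA alone 0 probe sets passed in limma without the block (1017 at an unadjusted p under 0.05) and 0 with intensities under 16 set to 16 (2132 at an unadjusted p under 0.05), so each AGA call named below is lost under both. For Aza against AGA the counts were likewise 0 without the block (1016 at an unadjusted p under 0.05) and 0 with that floor (1971 at an unadjusted p under 0.05), so each difference between the treatments that is named as passing, DCN included, is lost under both too. Since both treatments are set against the same 4 vehicle arrays, a vehicle array that is off moves both differences of its number, and the 578 members are a description rather than a set of calls. Their median size was 0.26 on the log2 scale (middle 50% from 0.19 to 0.39), a size that the condition of 1 direction itself helps to set. The difference was larger under AGA than under Aza in 389 of the 578, with a median size of 0.29 for AGA and 0.22 for Aza. Over all well-expressed probe sets it was larger under AGA in 6591 of 11107, with median sizes of 0.14 and 0.10. Among the members 52 passed for AGA alone, 0 passed for Aza alone and 7 differed between Aza and AGA. Over all 11107 well-expressed probe sets these counts were 152, 1 and 176. The AGA and Aza arrays took part in choosing the members, so the counts among members support nothing further. The plot of level against difference shows the members spread over the whole range of levels.

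**Figure D1:**
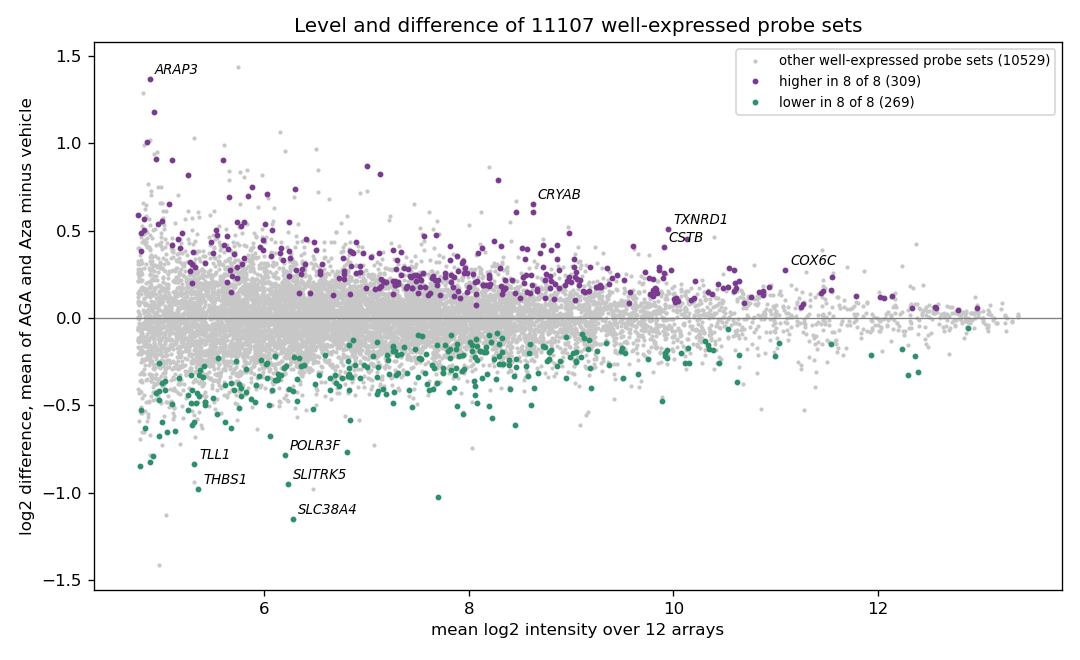
Mean log2 intensity over 12 arrays (x) against the log2 difference of the mean of AGA and Aza minus vehicle (y) for the 11107 well-expressed probe sets. Grey points are the other probe sets, purple the 309 higher and green the 269 lower in 8 of 8 differences. The members follow the full range of levels, and 5 of them exceed a 2-fold difference.

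The members that exceeded a 2-fold difference were ARAP3, KYNU and CRISPLD2, which were higher, and SLC38A4 and RIOK3, which were lower. ARAP3, KYNU and CRISPLD2 had vehicle means of 3.97, 4.14 and 4.18, under the median level of 4.76, and counted as well expressed only through the treated arrays. In replicate 4 KYNU measured 0.85 in Aza and 0.81 in vehicle cultures, close to the floor. Of the 309 higher members 14 had a vehicle mean under the median level, and of the 269 lower members 6 had a treated mean under it. A narrower condition, with all 8 treated arrays on 1 side of all 4 vehicle arrays, held for 24 of 11107 probe sets (0.216%), 11 higher and 13 lower. The higher ones included LAMP1, a heavily glycosylated protein of the lysosomal membrane, which spanned 10.57 to 10.79 in treated cultures and 10.28 to 10.53 in vehicle cultures. BSG, a membrane glycoprotein that escorts lactate transporters to the surface, spanned 7.69 to 8.14 in treated and 7.53 to 7.67 in vehicle cultures. SDHC, a membrane anchor of respiratory complex II, and IFNAR2, a subunit of the type I interferon receptor, were also among them, at 0.17 and 0.39. The lower ones included the coactivator EP300, the thrombin receptor F2R, the kinase CDK2 (-0.41), the zinc finger factor KLF15 (-0.82) and RIOK3 (-1.02). Each of these had an adjusted p above the threshold for the mean of both treatments, from 0.165 for F2R to 0.55 for SDHC. These genes were singled out after their values were seen. The other well-expressed probe set of IFNAR2 gave -0.06, the opposite sign, and that of CDK2 was lower by only 0.01. For LAMP1, for SDHC and for RIOK3, 2 of 3 other well-expressed probe sets differed in the member's direction. For RIOK3 the median of those 3 toward the member's direction was only 0.08.

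The genes described next are the 12 well-expressed members per direction with the lowest p among probe sets that carry 1 gene symbol, 1 probe set per gene, and their values are descriptive since none passed for the mean of both treatments. Probe sets without 1 symbol were passed over, 4 higher and 3 lower within the same range of p, among them the one with the lowest p of all (a lower one at -0.37, adjusted p = 0.0739). The AGA and Aza arrays took part in choosing these genes, so their AGA and Aza tests are given as description and support nothing further. The redox and protein-protection genes among them were TXNRD1, PRDX1, CRYAB and HSBP1. TXNRD1 encodes thioredoxin reductase, the enzyme that keeps thioredoxin reduced, and is a target of the antioxidant factor NRF2. TXNRD1 measured 10.15, 10.80, 10.19 and 10.33 in AGA cultures and 10.07, 9.86, 9.53 and 10.01 in Aza cultures, against 9.82, 9.60, 9.40 and 9.60 in vehicle cultures. Both treatments lay above vehicle at every number, and Aza replicate 3 overlapped the vehicle range. The mean of both treatments exceeded vehicle by 0.51 ± 0.10 (SE), with an adjusted p of 0.124. TXNRD1 rose in AGA cultures by 0.76 ± 0.11 (SE, adjusted p = 0.00547), and its Aza difference was 0.26 ± 0.11 (SE, adjusted p = 0.746). The treatments themselves differed, with Aza minus AGA at -0.50 (95% interval -0.74 to -0.26, adjusted p = 0.0467). PRDX1 encodes a peroxiredoxin that thioredoxin recharges. PRDX1 measured 10.47, 10.59, 10.77 and 10.73 in AGA cultures and 10.73, 10.45, 10.65 and 10.71 in Aza cultures, against 10.31, 10.17, 10.57 and 10.35 in vehicle cultures. AGA replicate 1, Aza replicate 2 and vehicle replicate 3 made the groups overlap. Its AGA and Aza differences were nearly equal, at 0.29 and 0.29, with the mean at 0.29 ± 0.06 (SE) and an adjusted p of 0.192. Aza minus AGA was 0.00 (95% interval -0.16 to 0.15, adjusted p = 0.994) for PRDX1.

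CRYAB encodes alpha-crystallin B, a small heat shock protein that holds unfolded proteins in solution. CRYAB measured 8.16, 9.63, 8.36 and 9.05 in AGA cultures and 8.32, 9.59, 8.78 and 8.85 in Aza cultures, against 7.16, 9.38, 8.18 and 8.05 in vehicle cultures. Replicate 2 was high in all 3 groups and vehicle replicate 1 was the lowest array, so the groups overlapped while the differences at each number ran from 0.19 to 1.15. The mean of both treatments was 0.65 ± 0.12 (SE) above vehicle (adjusted p = 0.123), with 0.61 for AGA and 0.69 for Aza. HSBP1 encodes a small coiled-coil protein that binds the trimer of heat shock factor 1. HSBP1 measured 8.84, 9.15, 9.45 and 9.04 in AGA cultures and 8.94, 8.69, 9.11 and 8.82 in Aza cultures, against 8.56, 8.26, 8.85 and 8.68 in vehicle cultures. The groups overlapped, and vehicle replicate 3 was the highest vehicle array. HSBP1 rose in AGA cultures by 0.53 ± 0.10 (SE, adjusted p = 0.022), against 0.30 ± 0.10 (SE, adjusted p = 0.665) in Aza cultures, and the mean of both was 0.42 ± 0.09 (SE) with an adjusted p of 0.165. Its other well-expressed probe set gave -0.07, the opposite sign.

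CSTB and NPC2 are tied to lysosomes, as is the proton pump subunit ATP6V1E1. CSTB encodes cystatin B, a cytosolic inhibitor of lysosomal cathepsins, and NPC2 a soluble lysosomal protein that carries cholesterol. CSTB measured 10.01, 10.39, 10.57 and 9.75 in AGA cultures and 9.97, 10.18, 10.06 and 9.41 in Aza cultures, against 9.60, 9.92, 9.81 and 9.20 in vehicle cultures. Every treated array exceeded its vehicle array of the same number, by 0.21 to 0.76, and replicate 4 was the lowest in each group. CSTB rose in AGA cultures by 0.55 ± 0.08 (SE, adjusted p = 0.00533), and the mean of both treatments was 0.41 ± 0.07 (SE) with an adjusted p of 0.0739. That was the lowest value of the contrast, and SLC38A4, GPNMB and the lower probe set without a symbol were among those that shared it. NPC2 measured 9.65, 10.35, 10.02 and 9.89 in AGA cultures and 9.27, 9.98, 9.59 and 9.23 in Aza cultures, against 9.18, 9.84, 9.49 and 8.83 in vehicle cultures. The Aza arrays lay close above their vehicle arrays for replicates 1 to 3 and the AGA arrays further above. NPC2 rose in AGA cultures by 0.64 ± 0.09 (SE, adjusted p = 0.00444), its Aza difference was 0.18 ± 0.09 (SE, adjusted p = 0.77), and Aza minus AGA was -0.46 (95% interval -0.65 to -0.27, adjusted p = 0.0185). ATP6V1E1 measured 8.91, 8.96, 9.20 and 8.92 in AGA cultures and 9.01, 8.96, 9.10 and 8.76 in Aza cultures, against 8.89, 8.52, 8.70 and 8.45 in vehicle cultures. Vehicle replicate 1 was the highest vehicle array and lay above Aza replicate 4. The ATP6V1E1 differences were 0.36 for AGA and 0.32 for Aza, with a mean of 0.34 ± 0.08 (SE) and an adjusted p of 0.221. AGA replicate 1 was above vehicle replicate 1 by only 0.02.

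COX6C and NDUFA1 are small subunits of the respiratory chain, of complex IV and complex I. COX6C measured 11.09, 11.11, 11.38 and 11.30 in AGA cultures and 11.21, 11.04, 11.29 and 11.05 in Aza cultures, against 10.96, 10.71, 11.07 and 10.90 in vehicle cultures. Aza replicates 2 and 4 were below vehicle replicate 3, so the groups overlapped across numbers. COX6C rose in AGA cultures by 0.31 ± 0.06 (SE, adjusted p = 0.035), with 0.24 ± 0.06 (SE, adjusted p = 0.514) in Aza cultures and a mean of 0.27 ± 0.05 (SE) (adjusted p = 0.153). NDUFA1 measured 10.22, 10.41, 10.51 and 10.58 in AGA cultures and 10.32, 9.93, 10.38 and 9.96 in Aza cultures, against 9.55, 9.63, 10.21 and 9.95 in vehicle cultures. AGA arrays were above every vehicle array, whereas Aza replicate 4 differed from its vehicle array by 0.01. NDUFA1 rose in AGA cultures by 0.60 ± 0.11 (SE, adjusted p = 0.0186), and the mean of both treatments was 0.45 ± 0.09 (SE) (adjusted p = 0.165).

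The remaining higher genes were SLC5A3, ARAP3 and HINT1. SLC5A3 encodes the sodium-coupled transporter that takes up myo-inositol, an osmolyte. SLC5A3 measured 8.78, 9.20, 8.65 and 9.13 in AGA cultures and 9.14, 9.31, 9.46 and 9.46 in Aza cultures, against 8.24, 8.87, 8.45 and 9.06 in vehicle cultures. It was highest in Aza cultures, where all 4 arrays exceeded all 4 vehicle arrays, while AGA replicates 1 and 3 lay within the vehicle range. The differences were 0.28 for AGA and 0.69 for Aza, the mean was 0.49 ± 0.10 (SE) (adjusted p = 0.153), and Aza minus AGA was 0.40 (95% interval 0.17 to 0.64, adjusted p = 0.119). A second well-expressed SLC5A3 probe set was also higher in 8 of 8 differences, at 0.61. ARAP3, a phosphoinositide-regulated protein that switches off RhoA and Arf6, was dim. ARAP3 measured 4.63, 5.05, 4.75 and 6.36 in AGA cultures and 4.99, 5.23, 5.30 and 6.41 in Aza cultures, against 1.96, 4.50, 3.99 and 5.43 in vehicle cultures. Vehicle replicate 1 was far below the other vehicle arrays, and both differences of that number were correspondingly the largest, at 2.67 for AGA and 3.03 for Aza. The mean difference was 1.37 ± 0.29 (SE) with an adjusted p of 0.179, and with a floor of 16 on the intensities it was 0.84. HINT1 encodes a nucleotide-binding hydrolase of the histidine triad family. HINT1 measured 11.65, 11.72, 11.92 and 11.75 in AGA cultures and 11.45, 11.60, 11.48 and 11.42 in Aza cultures, against 11.40, 11.47, 11.43 and 11.27 in vehicle cultures. All AGA arrays were above all vehicle arrays, and the Aza arrays overlapped the vehicle range. HINT1 rose in AGA cultures by 0.37 ± 0.06 (SE, adjusted p = 0.0084), against 0.09 ± 0.06 (SE, adjusted p = 0.846) in Aza cultures, with Aza minus AGA at -0.28 (95% interval -0.40 to -0.15, adjusted p = 0.0329). Its other 2 probe sets, 0.12 and 0.02, were not members, and the HINT1 member probe set is of a type that can bind related transcripts. The F2R, KRT10, HLA-G, COX4I1, AKR1C1, AKR1C2, RPL12 and RPL3 probe sets described below are of the same type, as is the second PARD3 probe set. So are those of DCN, KRT18 and KRT8 above.

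**Figure D2:**
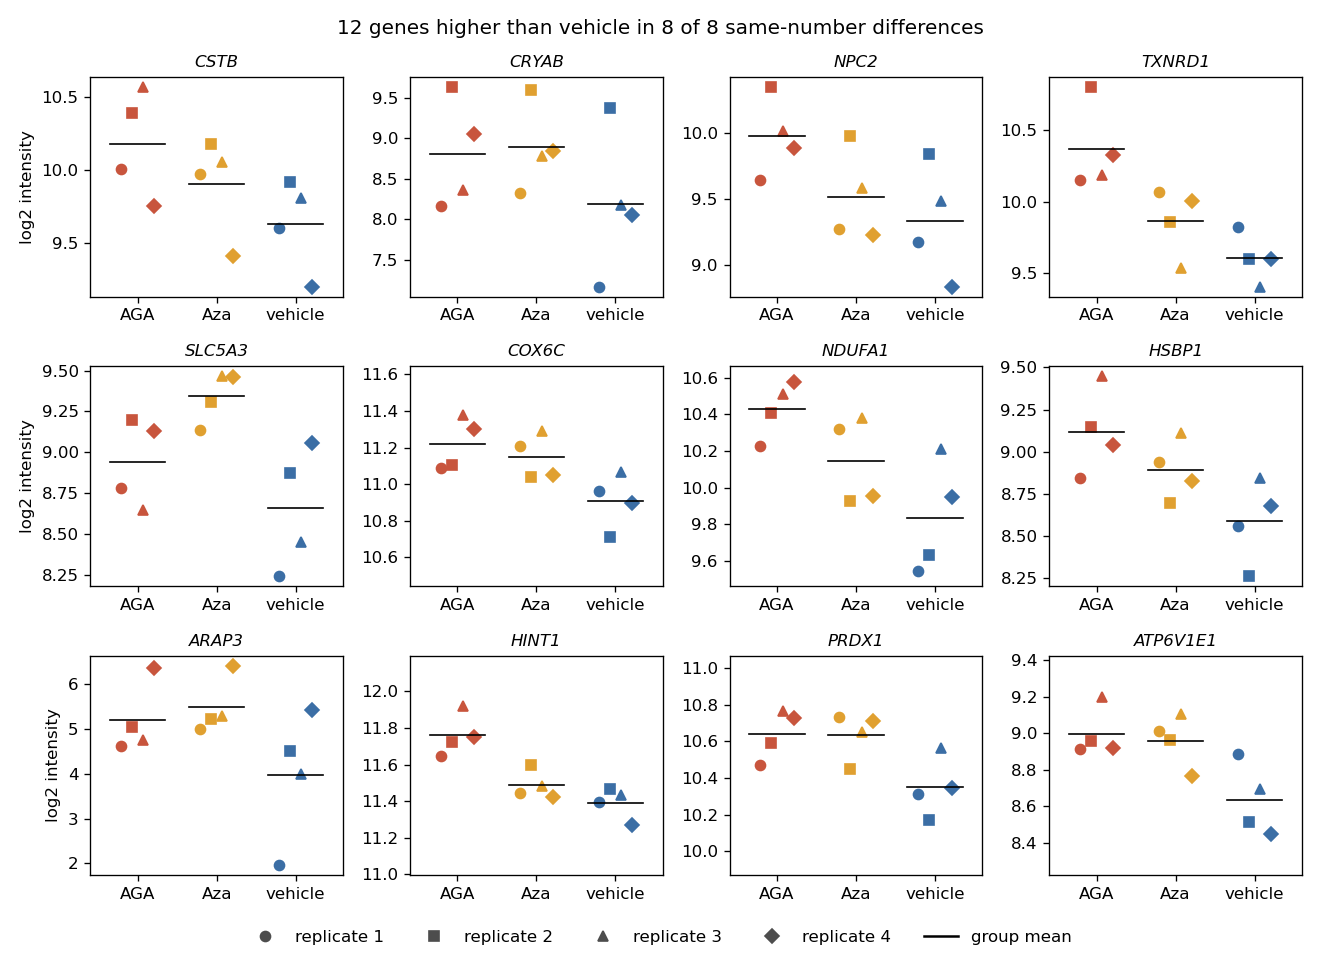
Log2 intensity (y) of the 12 higher genes in AGA, Aza and vehicle cultures, 1 panel per gene with its own axis. Symbols mark the replicate number and bars the group means over 4 arrays; the groups overlap in each panel, while within each number the treated symbols lie above the vehicle symbol.

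Of the 12 lower genes, SLC38A4 and SLITRK5 had the largest AGA differences. SLC38A4 encodes a sodium-coupled transporter of small neutral amino acids. SLC38A4 measured 4.46, 4.57, 4.04 and 7.11 in AGA cultures and 5.71, 6.31, 6.58 and 8.39 in Aza cultures, against 5.78, 6.42, 7.04 and 8.95 in vehicle cultures. Replicate 4 was high in all 3 groups, the AGA arrays were far below their vehicle arrays, and the Aza arrays less far. SLC38A4 fell in AGA cultures, with a difference of -2.0 ± 0.21 (SE, adjusted p = 0.00113), while Aza gave -0.30 ± 0.21 (SE, adjusted p = 0.861). Aza minus AGA was 1.70 (95% interval 1.25 to 2.15, adjusted p = 0.000974), and the mean of both treatments was -1.15 ± 0.18 (SE) with an adjusted p of 0.0739. SLITRK5 encodes a leucine-rich-repeat membrane protein known for its role in neurite outgrowth. SLITRK5 measured 5.29, 6.16, 5.06 and 5.37 in AGA cultures and 5.60, 6.49, 6.60 and 6.74 in Aza cultures, against 6.43, 6.93, 6.74 and 7.34 in vehicle cultures. All 4 AGA arrays were below all 4 vehicle arrays, and the Aza arrays overlapped the vehicle range. SLITRK5 fell in AGA cultures, with a difference of -1.40 ± 0.21 (SE, adjusted p = 0.00547), and Aza gave -0.51 ± 0.21 (SE, adjusted p = 0.729). A brighter SLITRK5 probe set was lower in 8 of 8 differences too, at -0.61.

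THBS1, TLL1 and F2R act outside the cell or at its surface. THBS1 encodes thrombospondin 1, a secreted matrix protein that binds integrins and activates latent TGF-beta. THBS1 measured 5.78, 4.87, 5.33 and 3.25 in AGA cultures and 5.98, 5.21, 5.55 and 4.28 in Aza cultures, against 6.80, 6.17, 6.08 and 4.98 in vehicle cultures. Replicate 4 was lowest in each group, and within each number both treated arrays were below vehicle by 0.52 or more. THBS1 fell in AGA cultures, with a difference of -1.20 ± 0.21 (SE, adjusted p = 0.0158), Aza gave -0.75 ± 0.21 (SE, adjusted p = 0.548), and the mean was -0.98 ± 0.18 (SE) (adjusted p = 0.123). Of its 4 dimmer probe sets, 1 was lower in 8 of 8 differences, at -1.15. TLL1 encodes a tolloid-like metalloprotease that trims procollagens and chordin. TLL1 measured 5.00, 5.66, 3.60 and 6.18 in AGA cultures and 4.47, 5.47, 4.16 and 5.77 in Aza cultures, against 5.58, 6.33, 4.73 and 6.85 in vehicle cultures. Replicate 3 was the lowest in each group, and the groups overlapped. Its AGA and Aza differences were similar, at -0.76 and -0.91, with a mean of -0.84 ± 0.18 (SE) and an adjusted p of 0.203. F2R, the protease-activated receptor cleaved by thrombin, was the only one of the 24 whose treated arrays all lay below all vehicle arrays. F2R measured 8.35, 8.70, 8.19 and 8.30 in AGA cultures and 8.03, 8.60, 8.69 and 8.67 in Aza cultures, against 8.82, 8.96, 8.99 and 8.99 in vehicle cultures. F2R fell in AGA cultures, with a difference of -0.56 ± 0.12 (SE, adjusted p = 0.043), Aza gave -0.44 ± 0.12 (SE, adjusted p = 0.518), and the mean was -0.50 ± 0.10 (SE) (adjusted p = 0.165).

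SULT1E1, MERTK, PTPN13 and BBS10 have roles in hormone, kinase and cilium pathways. SULT1E1 sulfates and inactivates oestrogens. SULT1E1 measured 8.48, 8.11, 7.44 and 6.05 in AGA cultures and 8.38, 8.64, 8.07 and 6.95 in Aza cultures, against 8.92, 8.75, 8.36 and 7.22 in vehicle cultures. Replicate 4 was lowest in every group, and the groups overlapped. SULT1E1 fell in AGA cultures, with a difference of -0.79 ± 0.13 (SE, adjusted p = 0.0109), and Aza gave -0.30 ± 0.13 (SE, adjusted p = 0.746). MERTK is a receptor tyrosine kinase for the uptake of dying cells. MERTK measured 6.93, 6.72, 6.78 and 7.98 in AGA cultures and 7.11, 6.84, 7.23 and 8.61 in Aza cultures, against 7.28, 7.11, 7.84 and 8.90 in vehicle cultures. MERTK fell in AGA cultures, with a difference of -0.68 ± 0.13 (SE, adjusted p = 0.021), and Aza gave -0.33 ± 0.13 (SE, adjusted p = 0.715), with replicate 4 high in all 3 groups and the groups overlapping. PTPN13 is a tyrosine phosphatase with several PDZ domains. PTPN13 measured 8.52, 8.61, 8.09 and 8.25 in AGA cultures and 8.44, 8.85, 8.57 and 8.67 in Aza cultures, against 8.81, 8.94, 8.89 and 8.97 in vehicle cultures. All AGA arrays were below all vehicle arrays and Aza replicate 2 was inside the vehicle range. PTPN13 fell in AGA cultures, with a difference of -0.53 ± 0.10 (SE, adjusted p = 0.023), and Aza gave -0.27 ± 0.10 (SE, adjusted p = 0.715). BBS10 belongs to the chaperonin-like complex that assembles the BBSome of the primary cilium. BBS10 measured 7.31, 7.50, 7.42 and 8.26 in AGA cultures and 7.61, 7.56, 8.13 and 7.99 in Aza cultures, against 8.01, 7.92, 8.31 and 8.65 in vehicle cultures. The AGA and Aza arrays of replicate 4 lay within the vehicle range, as did Aza replicate 3. BBS10 fell in AGA cultures, with a difference of -0.60 ± 0.13 (SE, adjusted p = 0.0413), against -0.40 ± 0.13 (SE, adjusted p = 0.611) in Aza cultures.

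KRT10, PCF11 and POLR3F complete the lower genes. KRT10, a keratin of suprabasal and keratinizing cells, was bright in all groups. KRT10 measured 12.15, 12.20, 11.87 and 12.60 in AGA cultures and 12.34, 12.34, 12.16 and 12.65 in Aza cultures, against 12.44, 12.44, 12.33 and 12.82 in vehicle cultures. Replicate 4 was the highest in each group, and the groups overlapped. KRT10 fell in AGA cultures, with a difference of -0.30 ± 0.05 (SE, adjusted p = 0.0084), and Aza gave -0.14 ± 0.05 (SE, adjusted p = 0.679); 3 KRT10 probe sets were lower in 8 of 8 differences, and with arrays centred on their median the named one was not. PCF11 is a scaffold of the complex that cleaves the 3′ end of messenger RNA. PCF11 measured 8.23, 8.06, 7.55 and 7.59 in AGA cultures and 8.20, 8.11, 8.03 and 7.65 in Aza cultures, against 8.65, 8.60, 8.14 and 7.88 in vehicle cultures. Vehicle replicate 4 lay below 2 AGA and 3 Aza arrays, so the groups overlapped across numbers. PCF11 fell in AGA cultures, with a difference of -0.46 ± 0.10 (SE, adjusted p = 0.0483), and Aza gave -0.32 ± 0.10 (SE, adjusted p = 0.633). POLR3F is a subunit of RNA polymerase III, which makes transfer RNA. POLR3F measured 5.80, 5.29, 6.02 and 6.68 in AGA cultures and 5.86, 6.06, 6.01 and 5.82 in Aza cultures, against 6.88, 6.60, 6.46 and 6.97 in vehicle cultures. AGA replicate 4 lay within the vehicle range and the other treated arrays below it. Its AGA and Aza differences were nearly equal, at -0.78 and -0.79, and the adjusted p for the mean was 0.221.

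**Figure D3:**
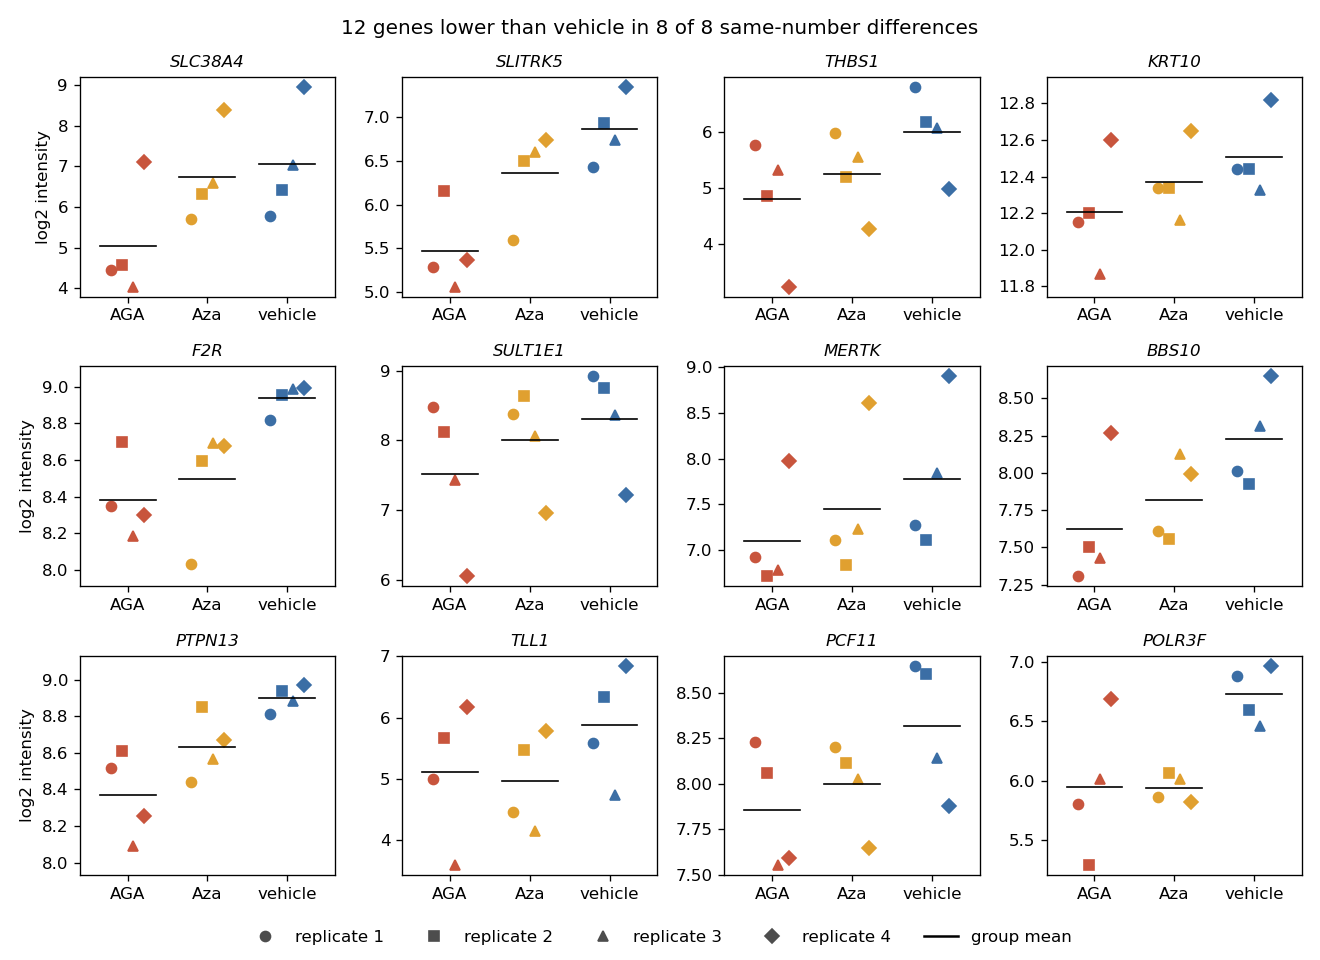
Log2 intensity (y) of the 12 lower genes in AGA, Aza and vehicle cultures, drawn as for the higher genes, with symbols for the replicate number and bars for the means over 4 arrays. F2R is the only panel in which all 8 treated symbols lie below all 4 vehicle symbols.

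Over the 24 genes the AGA difference was the larger in 19, against 6591 of the 11107 well-expressed probe sets. For AGA alone 17 of the 24 passed, 7 higher and 10 lower, and for Aza alone 0 passed, counts that draw on the arrays used to choose the 24. The treatments differed for TXNRD1, NPC2, HINT1 and SLC38A4, calls that are lost without the block or with the floor of 16, and for 10 of the 24 the 95% interval of Aza minus AGA held 0. Those 10 intervals include ones as wide as -0.43 to 1.00 for ARAP3, so equal action of the treatments was not shown. On the deposited scale 10 of the 24 kept the 8-of-8 condition (ARAP3 among the higher, and SLITRK5, THBS1, F2R, SULT1E1, BBS10, PTPN13, TLL1, PCF11 and POLR3F among the lower), and with arrays centred on their median 23 did. The sign of the mean difference was kept by all 24 on both scales.

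**Figure D4:**
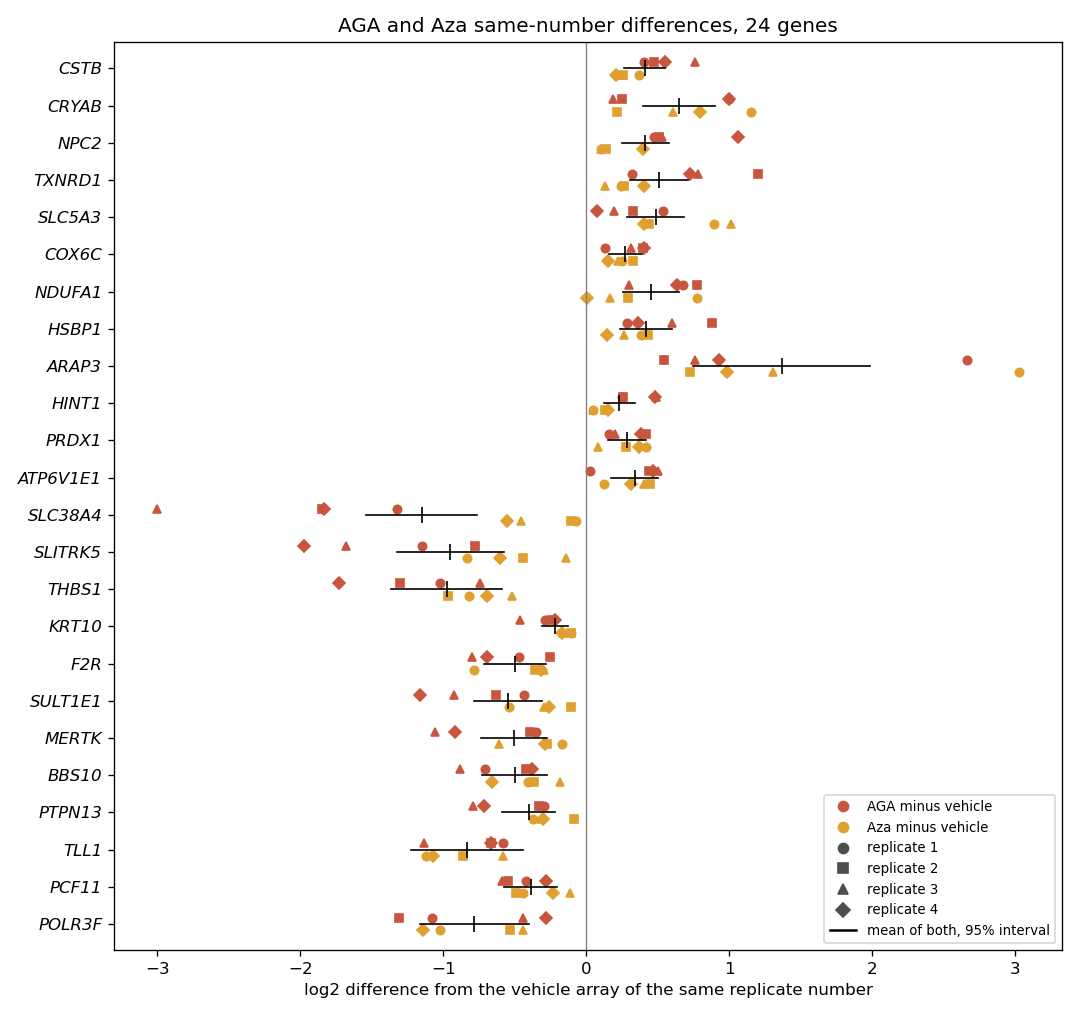
Log2 difference (x) of each AGA and Aza array from the vehicle array of the same replicate number for the 24 genes, with the fitted mean of both treatments and its 95% interval as a black line. All 8 symbols of a gene lie on 1 side of 0, and the AGA symbols reach further from 0 than the Aza symbols for SLC38A4, SLITRK5 and TXNRD1.

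Probe sets elsewhere in the same genes gave a second reading. Of the 488 genes, 245 had another well-expressed probe set, 406 in all, and 293 of these (72.2%) differed in the member's direction. Their median difference toward the member's direction was 0.09, against 0.27 for the member itself. Of the 406, 23 also met the 8-of-8 condition in the same direction and 3 met it in the opposite one. The 22 genes with at least 2 member probe sets in 1 direction included the matrix protein FN1 (0.40 and 0.40), the kynurenine pathway enzyme KYNU (1.18 and 0.71), the ATP synthase subunit ATP5MG (0.21 and 0.18) and TXN. Among the lower were the transcription factor TCF4 (-0.43 and -0.22), the Polycomb partner RYBP (-0.32 and -0.25), the SUMO ligase PIAS1 (-0.33 and -0.20) and RIOK3 (-1.02 and -0.19). RIOK3 and ATP5MG each had 3 other well-expressed probe sets, of which only 2 differed in the member's direction.

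Gene lists were read with the brightest probe set per gene, where 212 of 6633 well-expressed genes (3.2%) were higher and 168 (2.53%) lower in 8 of 8 differences. The median difference over all 11963 genes was 0.01, and 0 members of any list passed for the mean of both treatments. Of 40 oxidative phosphorylation genes, all well expressed, 10 were higher in 8 of 8 differences and 0 lower on the quantile scale, 16 were higher with arrays centred on their median, and 0 were higher on the deposited scale. Over all well-expressed genes the higher share was 4.33% with centred arrays and 0.0905% on the deposited scale. The 10 were COX6C, NDUFA1, COX6A1 (0.15), NDUFB2 (0.22), COX5A (0.18), COX4I1 (0.12), NDUFA2 (0.17), UQCRQ (0.15), UQCRC2 (0.14) and NDUFB8 (0.11). They are subunits of complexes I, III and IV, and 36 of the 40 genes had a mean difference above 0, with a list median of 0.12. At each replicate number the list median was above 0, at 0.10, 0.11, 0.14 and 0.18 for AGA and 0.07, 0.08, 0.09 and 0.08 for Aza. For AGA alone 3 of the 40 genes rose, against 49 of all 11963 genes. Relative to the median of all probe sets the list median on the deposited scale was 0.15.

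Of 23 well-expressed NRF2 targets, which code for redox enzymes and detoxifying reductases, 6 were higher in 8 of 8 differences and 0 lower on the quantile scale, 8 were higher with centred arrays and 0 on the deposited scale. They were TXNRD1, PRDX1, the thioredoxin TXN (0.21), the glutathione reductase GSR (0.38) and the aldo-keto reductases AKR1C2 (0.79) and AKR1C1 (0.61). GSR measured 6.80, 6.64, 6.81 and 5.90 in AGA cultures and 6.78, 5.96, 6.28 and 5.81 in Aza cultures, against 6.33, 5.88, 6.04 and 5.71 in vehicle cultures. AKR1C2 measured 9.44, 9.05, 9.59 and 7.48 in AGA cultures and 9.68, 8.69, 8.25 and 6.25 in Aza cultures, against 9.33, 8.37, 7.95 and 5.40 in vehicle cultures. In both genes replicate 4 was the lowest of each group, and the groups overlapped. AKR1C1 and AKR1C2 are near-identical copies whose signals a probe set may share. The median over the list was 0.24, with 23 of 26 measured genes above 0. By replicate number the median over the well-expressed genes was 0.15, 0.47, 0.59 and 0.49 for AGA and 0.13, 0.11, 0.12 and 0.12 for Aza, so the Aza values were small and close to each other. For AGA alone 3 of 26 rose, against 49 of all 11963 genes.

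The promoters that hold the antioxidant response core among the 24 genes are printed here because TXNRD1 belongs to the NRF2 list. Promoters from RefSeq (250 bases before to 50 after the gene start, GRCh38.p14) were matched for 19 of the 24 genes. The core TGACNNNGC, searched on both strands, was found in 4 of these 19, against 13.6% of 27305 promoters and 15.9% of 5608 promoters of well-expressed genes. They were TXNRD1 (chr12:104215529-104215828), NDUFA1 (chrX:119871582-119871881), HSBP1 (chr16:83807728-83808027) and PCF11 (chr11:83156881-83157180), all on the plus strand and written 5′ to 3′ with each match in capitals.
TXNRD1: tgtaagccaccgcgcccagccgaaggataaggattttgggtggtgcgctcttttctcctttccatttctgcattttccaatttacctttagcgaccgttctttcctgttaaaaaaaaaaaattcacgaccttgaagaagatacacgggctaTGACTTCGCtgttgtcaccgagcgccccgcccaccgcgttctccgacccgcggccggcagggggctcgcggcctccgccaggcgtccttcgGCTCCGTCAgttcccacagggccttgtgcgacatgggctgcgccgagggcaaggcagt
NDUFA1: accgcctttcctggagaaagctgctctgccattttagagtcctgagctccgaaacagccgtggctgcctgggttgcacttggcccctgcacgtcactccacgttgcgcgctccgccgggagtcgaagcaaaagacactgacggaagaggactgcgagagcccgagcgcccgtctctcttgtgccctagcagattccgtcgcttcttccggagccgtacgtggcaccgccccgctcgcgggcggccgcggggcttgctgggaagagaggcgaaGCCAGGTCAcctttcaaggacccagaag
HSBP1: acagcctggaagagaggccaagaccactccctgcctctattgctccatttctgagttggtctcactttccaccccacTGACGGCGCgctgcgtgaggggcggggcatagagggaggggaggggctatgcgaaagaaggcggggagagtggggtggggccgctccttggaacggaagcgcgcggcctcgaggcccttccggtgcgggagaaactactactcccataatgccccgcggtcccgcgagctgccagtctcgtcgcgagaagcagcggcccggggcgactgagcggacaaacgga
PCF11: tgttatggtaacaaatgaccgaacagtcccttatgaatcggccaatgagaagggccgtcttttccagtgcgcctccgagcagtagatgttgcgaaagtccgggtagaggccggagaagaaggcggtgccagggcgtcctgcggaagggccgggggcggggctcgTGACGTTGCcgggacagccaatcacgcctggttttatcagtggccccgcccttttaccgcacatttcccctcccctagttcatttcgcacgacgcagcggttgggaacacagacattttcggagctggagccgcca
TXNRD1 carries 2 matches, the first on the plus strand starting 99 bases before the gene start and the second on the minus strand. NDUFA1 has its match on the minus strand, and HSBP1 and PCF11 on the plus strand. TXNRD1, NDUFA1 and HSBP1 were higher in treated cultures and PCF11 lower. A match is a run of letters in this window and not a measured binding site. CSTB, CRYAB, COX6C, PRDX1 and F2R were not searched. The metal response core (TGCACNC or TGCGCNC) was in 5 of 19 promoters (29.3% of all and 39.8% of those of well-expressed genes), GCGTG in 8 of 19 (36.3% and 52.7%), TGATGNAA in 1 of 19 (3.67% and 1.59%), CACGTG in 0 of 19 (7.43% and 11.2%) and TGACGTCA in 0 of 19 (1.98% and 3.64%); GCGTG and the metal core can overlap in the same bases.

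Of 23 well-expressed acetyltransferase and deacetylase genes, 4 were lower in 8 of 8 differences and 0 higher, with 4 lower on the deposited scale (3.8% of all well-expressed genes) and 3 with centred arrays (1.69%). They were EP300 and CREBBP, a pair of related histone acetyltransferases that serve as coactivators, KAT6B (-0.38), and the nuclear receptor coactivator NCOA1 (-0.41). EP300 measured 6.32, 6.45, 5.99 and 6.36 in AGA cultures and 6.26, 6.26, 6.53 and 6.25 in Aza cultures, against 6.97, 6.86, 6.70 and 6.75 in vehicle cultures. All 8 treated values of EP300 were below all 4 vehicle values, with differences of -0.54 for AGA and -0.50 for Aza and an adjusted p of 0.253 for the mean. CREBBP measured 7.52, 7.75, 7.56 and 7.97 in AGA cultures and 7.60, 7.72, 7.81 and 7.92 in Aza cultures, against 7.64, 8.04, 8.04 and 8.39 in vehicle cultures. CREBBP gave -0.30, and its groups overlapped across numbers. The list median was -0.09, and 3 of 26 measured genes lay above 0. By replicate number the median was -0.11, -0.22, -0.31 and -0.08 for AGA and -0.13, -0.06, -0.12 and -0.08 for Aza. A second EP300 probe set gave -0.32 and was not a member.

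Immediate early genes and feedback inhibitors of the MAPK pathway, which respond to growth factors, had a list median of -0.30 with 7 of 32 measured genes above 0. Of 21 well-expressed ones only PHLDA1 (-0.46), an early-response gene with a pleckstrin homology-like domain, met the 8-of-8 condition, lower with 2 probe sets; on the deposited scale 4 of them were lower (3.8% of all well-expressed genes), and without replicate 4, 8 were lower in 6 of 6 differences (5.31% of all). The median by number was -0.49, -0.57, -0.25 and -0.05 for AGA and -0.29, -0.19, -0.19 and -0.06 for Aza, nearest to 0 at replicate 4 in both. These 4 lists (oxidative phosphorylation, NRF2 targets, acetyltransferases and deacetylases, immediate early genes) were the ones of 33 with well-expressed genes whose median had 1 sign at all 8 differences. In 13 of the 33 lists no gene met the condition.

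**Figure D5:**
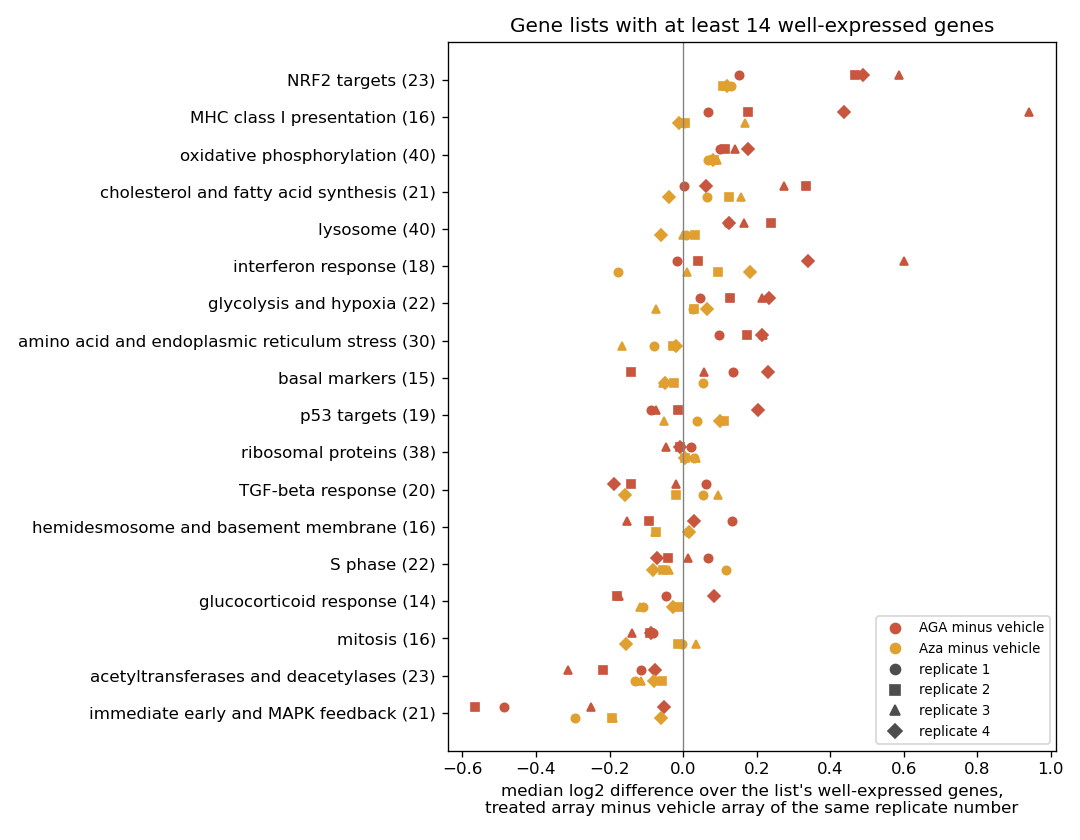
Median log2 difference (x) over the well-expressed genes of each list, 1 symbol per treated array against the vehicle array of the same replicate number, for the 18 lists with at least 14 such genes (number in brackets). The NRF2 and oxidative phosphorylation symbols all lie right of 0, the acetyltransferase and immediate early symbols all left of it, and the MHC class I symbols spread from below 0 to 0.94.

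The genes of polarity and adhesion were read from 7 lists: apical polarity complexes, tight, adherens and gap junctions, desmosomes, hemidesmosomes with the basement membrane, and the apical surface. Read with the brightest probe set per gene, they held 99 measured genes, 57 of them well expressed, with a median difference of -0.01 over those 57. The lists differed. The median over well-expressed genes was -0.13 for the apical polarity complexes (10 genes), 0.12 for tight junctions (4) and 0.42 for gap junctions (2). The other lists ran from -0.03 to 0.01. None of the 7 lists had a median of 1 sign at all 8 differences. Of the 57, 4 (7.02%) were higher in 8 of 8 differences and 0 lower, against 3.2% and 2.53% over all well-expressed genes, and 0 of the 99 passed for the mean, for AGA or for Aza. The 4 were the junction adhesion molecule JAM3 (0.17), the laminin-binding integrin subunit ITGA3 (0.31), the connexin GJB5 (0.90) and the recycling endosome GTPase RAB11A (0.23). Another well-expressed RAB11A probe set gave -0.10, the opposite sign. GJB5 measured 5.56, 6.35, 6.23 and 6.59 in AGA cultures and 5.32, 5.76, 5.52 and 5.83 in Aza cultures, against 5.30, 5.17, 5.36 and 4.15 in vehicle cultures. ITGA3 measured 6.85, 6.70, 6.64 and 6.68 in AGA cultures and 6.64, 6.77, 6.57 and 6.48 in Aza cultures, against 6.53, 6.62, 6.32 and 5.94 in vehicle cultures. GJB5 was dim and its groups overlapped, as did those of ITGA3. Of the 10 well-expressed genes of the apical polarity complexes, 0 met the condition with their brightest probe set, while a dimmer PARD3 probe set did.

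PARD3, a scaffold of the PAR complex, was read by 4 well-expressed probe sets that disagreed, with differences of -0.16, -0.18, -0.34 and 0.47. The third of these met the 8-of-8 condition on the quantile, deposited and median-centred scales. It measured 7.44, 7.61, 7.20 and 7.43 in AGA cultures and 7.25, 7.94, 7.32 and 6.95 in Aza cultures, against 7.59, 8.08, 7.74 and 7.51 in vehicle cultures. Its treated arrays overlapped the vehicle range across numbers, and its adjusted p was 0.369. The tight junction scaffold TJP1 gave 0.09 (95% interval -0.09 to 0.27) and E-cadherin, CDH1, gave -0.20 (95% interval -0.40 to -0.01). The hemidesmosome integrin ITGB4 gave 0.28 (95% interval 0.07 to 0.49) with its brightest probe set and -0.06 and -0.11 with its other 2 well-expressed ones, and connexin 43, GJA1, gave -0.06 (95% interval -0.23 to 0.12). None of these 4 met the condition, and the adjusted p ran from 0.415 for ITGB4 to 0.905 for GJA1. DNMT1, the maintenance methyltransferase that Aza traps, gave -0.08 (95% interval -0.46 to 0.30).

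GPNMB, a glycoprotein of lysosome-related organelles, had the same lowest adjusted p of 0.0739 for the mean of both treatments but was no member, since Aza replicate 2 lay 0.07 below vehicle replicate 2. GPNMB measured 7.05, 9.59, 7.30 and 6.19 in AGA cultures and 5.58, 8.39, 6.10 and 4.48 in Aza cultures, against 5.54, 8.46, 5.91 and 3.57 in vehicle cultures. Replicate 2 was the highest and replicate 4 the lowest of each group, and the groups overlapped. GPNMB rose in AGA cultures by 1.66 ± 0.19 (SE, adjusted p = 0.0014), Aza gave 0.27 ± 0.19 (SE, adjusted p = 0.86), and Aza minus AGA was -1.40 (95% interval -1.80 to -1.0, adjusted p = 0.00178). CYP1B1, a cytochrome P450 induced through the aryl hydrocarbon receptor, had AGA and Aza values of opposite sign, with 0.94 ± 0.14 (SE, adjusted p = 0.00547) for AGA and -0.38 ± 0.14 (SE, adjusted p = 0.71) for Aza. SLC7A11, the cystine transporter, gave 0.93 for AGA and -0.24 for Aza with its brightest probe set, and 1.26 and 0.10 with another of nearly the same level. In the MHC class I list all 17 measured genes had a mean difference above 0 (median 0.22), but the Aza median by number was 0.00, 0.01, 0.17 and -0.01. With the brightest probe set per gene, 1 of 16 well-expressed genes, HLA-G (0.39), met the condition. HLA-C was also a member, at 0.75, with a probe set that the list did not use. Its 3 other well-expressed probe sets were higher too, with a median of 0.41. In the same reading by brightest probe set, 2 of 40 well-expressed lysosomal genes met the condition (NPC2 and LAMP1), and of 38 ribosomal protein genes 2 did (RPL12 at 0.06 and RPL3 at 0.05). Of 16 well-expressed mitotic genes 1 was lower (HMMR at -0.45), and MKI67, a proliferation marker that was dim, gave 0.25 (95% interval -0.72 to 1.23). Over all well-expressed genes 3.2% were higher and 2.53% lower in 8 of 8 differences. Counts of 1 or 2 genes do not set these lists apart from those shares.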

How the data were processed

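RNA from 12 cultures of the HMT-3522 S1 line was hybridised to 1 Affymetrix array each, with 4 arrays per group. The deposited intensity values per probe set are on a linear scale and were made with GCOS, per the submitters' processing notes; the algorithm and any scaling are not given in the sources used here. Of 22277 probe sets, 62 controls were left out. Intensities under 1 were set to 1, log2 was taken and the 12 arrays were quantile normalized. The 22215 probe sets were tested in R 4.3.3 with the limma package, version 3.58.1 (lmFit, then eBayes with an intensity trend and robust prior, two-sided), with replicate number as a block and Benjamini-Hochberg adjustment over all probe sets at 0.05. The fit was tested on simulated data. Detection calls were not used, and precision is limited by how few arrays each group has.

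Whether replicate numbers pair the arrays was examined after subtracting each group's mean. Over well-expressed probe sets the 12 same-number pairs of arrays correlated at 0.368 to 0.781, and different numbers at most at 0.181. Over all probe sets the same-number values ran from 0.0589 to 0.261, with 6 of 12 over 0.1. The labels give only the numbers; the block is part of how the comparison was set.

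Symbols came from the platform annotation, which gave 1 symbol for 19064 probe sets, several for 1043 and none for 2108. The named genes are the 12 per direction with the lowest p among well-expressed probe sets that carry 1 gene symbol, with 8 of 8 differences in 1 direction, which stood in because none passed, plus genes fixed by name and members of the 35 lists. The members, lists and tests were chosen with earlier results of these data known. Alternatives were fits without the block, with a random block, without the trend and robust prior, other scalings, a floor of 16, dim probe sets left out, Holm adjustment, and each array or replicate number left out.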

Additional observations from a re-analysis of the deposited data

Results flagged for a closer look

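In 5 of the 117 groups of 4 arrays examined for the 24 genes and the genes fixed by name, 1 array lay far from the other 3. Chance alone gives about 1 such group in 20. ATP6V1E1 measured 9.2 in AGA replicate 3, against 8.91 to 8.96 in the other AGA arrays. F2R measured 8.03 in Aza replicate 1, against 8.6 to 8.69 in the other Aza arrays. MERTK measured 7.98 in AGA replicate 4, against 6.72 to 6.93. EP300 measured 6.53 in Aza replicate 3, against 6.25 to 6.26. MKI67 measured 3.12 in AGA replicate 3, against 4.36 to 4.58.

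The effects of the 2 treatments differed by the test of Aza minus AGA in 7 genes, calls that are all lost without the replicate block or with a floor of 16. The Aza minus AGA difference was -0.46 for NPC2, -0.5 for TXNRD1, -0.28 for HINT1 and 1.7 for SLC38A4, all of which met the 8-of-8 condition. It was -1.32 for CYP1B1, -1.4 for GPNMB and -1.17 for SLC7A11, none of which met it.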

How the results depend on the processing

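The mean difference of all 24 genes kept its direction in each of 21 alternatives, and 12 of the 504 values newly passed the threshold (SLC38A4 in 4 alternatives, SLITRK5 in 2, and CSTB, COX6C, HSBP1, SULT1E1, THBS1 and TXNRD1 in 1 each). For the mean of both treatments the count of passing probe sets was 0 without the replicate block, with a random block, without the trend and robust prior, with a floor of 16 or by Holm. It was 4 on the deposited scale (THBS1, SLITRK5 and SLC38A4 lower, the dim RHOH higher), 6 with centred arrays, and 1, the dim SLC29A1, without block, trend and robust prior. Leaving out 1 array gave 0 to 17, with 17 without AGA replicate 1, 3 without AGA replicate 4, 2 without Aza replicate 3 and 1 without AGA replicate 3. Leaving out a replicate number gave 0 to 0.

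For AGA alone the 156 became 0 without the replicate block, 1 with a random block, 2 with the block but neither trend nor robust prior, 2 with none of the 3, 322 on the deposited scale (11 higher, 311 lower), 0 with a floor of 16, 241 without dim probe sets and 9 by Holm. Leaving out 1 array gave 26 to 232 (26 without AGA replicate 3, 28, 34, 68 and 91 without vehicle replicates 3, 4, 2 and 1, 102, 100 and 95 without AGA replicate 2, Aza replicate 1 and Aza replicate 2) and a number 7 to 150, with 7 without replicate 3. For Aza alone the 1 became 0 without the replicate block, 0 without the trend and robust prior, 2 with none of the 3, 3 with centred arrays, and 0 with a floor of 16, with 0 to 7 without 1 array and 0 to 3 without a number. For Aza against AGA the 189 became 0 without the replicate block, 15 with a random block, 2 without the trend and robust prior, 3 with none of the 3, 0 with a floor of 16 and 20 by Holm, with 55 to 231 without 1 array (55, 80, 89 and 108 without Aza replicates 3, 1, 2 and 4, and 65 and 124 without AGA replicates 3 and 4) and 27 to 120 without a number. The cause of these shifts was not tested.

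The 578 members became 24 when no treated array was allowed inside or across the vehicle range, and 1179 to 1236 when a number was left out and 6 of 6 differences were asked for, a weaker condition. Signs turned for genes near 0. CDKN1A was -0.11 and TJP1 -0.0593 on the deposited scale. Across the leave-outs CDKN1A spanned -0.0867 to 0.0949, DNMT1 -0.171 to 0.0865, GJA1 -0.0940 to 0.0184, MKI67 -0.0996 to 0.626 and TJP1 -0.00119 to 0.168.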
